A study of Danio rerio with 2 samples.

Results

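The regions described here are the stretches inside zebrafish chromosomes where CUT&Tag peaks for HA-tagged Npas4l were listed closest together. The 25 chromosomes were divided into bins of 100 kb, each listed peak was placed in the bin of its summit, and bins with 30 or more peaks were kept. Chromosome 4 was used up to 25 Mb, and on the other chromosomes the outermost 1 Mb at each end was left out. The rule kept 43 bins with 1730 peaks, out of 12449 interior bins with at least 1 peak and out of 192841 peaks in the whole list. The regions were chosen by the number of listed peaks per bin, and that number comes from the comparison of the same libraries as every other value given here. The values are therefore a description and carry no test. The 8944 interior bins of 10 to 18 peaks, with 123275 peaks, are set beside them.

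The list compares 2 samples, with 1 library per group. The control carried Tg(gata1a:Cre-ERT2). The overexpression sample, titled Npas4l-HA OE, carried Tg(ubi:loxp-stop-loxp-Npas4l-HA) and Tg(gata1a:Cre-ERT2), so the Cre transgene was present in both and the HA-tagged protein could be made only in the second, in cells where the gata1a promoter had driven Cre and in their descendants. Each sample pooled 30 adult heart ventricles, fixation lasted 2 min in formaldehyde at 0.2%, and the same mouse antibody to the HA tag was used for both. The cells are labelled as platelets, while the description of the preparation says that the pellet held mainly platelets and erythrocytes. Whether and when a ligand for Cre-ERT2 was given is not stated in the sources used here. The list holds positions and no expression, so the cell label could not be set against marker genes. More cells with signal at a place and more signal per cell cannot be told apart in such pooled material.

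In CUT&Tag an antibody brings the transposase Tn5 to a protein on chromatin, and the fragments cut there are sequenced. A library made with the same antibody from cells without the tag records the fragments that arise without the tagged protein. Npas4l, encoded by the zebrafish gene known as cloche, is a bHLH-PAS transcription factor that is needed for the blood and endothelial lineages of the embryo. Factors of this family bind DNA together with a partner of the Arnt type. Zebrafish platelets, usually called thrombocytes, and zebrafish erythrocytes keep their nuclei, and Gata1a is a transcription factor of both lineages. The positions are those of the build GRCz11, which the submitters' processing notes name. The genes, sequences and motifs at these positions were not analysed here.

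Both libraries stood high in most of the dense bins, and, as in any listed peak, the overexpression library stood above the scaled control at each summit. Across the dense bins, overexpression fragments over a summit numbered 21 at the median (quartiles 8 and 63), and the background, in control fragments after scaling, was 7.73 (2.50 and 26.51). In bins of 10 to 18 peaks the medians were 4 overexpression fragments (quartiles 4 and 6) and a background of 1.105 (0.994 and 1.66). The overexpression signal thus differed more between the 2 kinds of bin than the ratio of the libraries did. The ratio of overexpression fragments to background had a median of 2.83 in dense bins, with quartiles of 2.23 and 3.62, and 3.62 in bins of 10 to 18 peaks, where quartiles were 2.90 and 4.02. The fold enrichment that the authors' deposited table gives, which adds 1 fragment to both sides, had a median of 2.47 in dense bins and 2.38 in the others. A peak could enter the list at a background of 0.994 with 3 overexpression fragments, a ratio of 3.02, but at a background 10 times higher a ratio of 1.51 was enough. The lowest ratio that can be seen is therefore set by the background, and lower ratios at low background are missing from the list.

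Peaks of low q made up a larger share of the peaks in dense bins than of the whole list, though most of them lay elsewhere. In the authors' deposited table, whose fold, p and q are the peaks' own values, 875 of the 1730 peaks passed a q of 0.05, a share of 50.6% with a Wilson 95% interval from 48.2% to 52.9%. This compares with 5.49% over the whole list and 4.32% in bins of 10 to 18 peaks. The stricter level of a -log10 q of at least 5 was met by 498 of the 1730, or 28.8%, against 0.747% of the whole list and 0.213% in bins of 10 to 18 peaks. Fold enrichments of at least 5 were found for 27 of the 1730, or 1.56%, against 0.303% of the whole list. The dense bins held 0.897% of all listed peaks, 8.27% of those with a q up to 0.05, 34.6% of those with a -log10 q of at least 5, and 4.62% of those with a fold enrichment of at least 5. Because the density of peaks and these values come from the same contrast, nothing is read from the shares. The intervals cover counting error only, and fragments copied by PCR are not independent molecules.

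Near the threshold of the rule the medians changed in small steps, while the shares of peaks with a low q did not change evenly. The 7 bins with 30 peaks had a median background of 2.17 fragments, a median of 7 overexpression fragments and 23.3% of peaks with a q up to 0.05. In the 8 bins with 29 peaks the corresponding values were 1.66 fragments, 6 fragments and 24.6%, and in the 18 bins with 28 peaks they were 1.37 fragments, 5 fragments and 15.3%. A -log10 q of at least 5 was met by 8.57%, 13.8% and 7.54% of peaks in bins with 30, 29 and 28 peaks. The interior bins as a whole had a median of 14 peaks, with a 5th percentile of 7 and a 95th of 21, and the fullest had 75.

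The dense bins lay on 16 chromosomes. Chromosome 8 had the most, with 8 bins and 294 peaks, followed by chromosome 16 with 7 bins and 253 peaks. Chromosomes 25, 5 and 3 had 3 bins each, with 157, 129 and 96 peaks. Chromosomes 24, 12, 7, 17, 10, 13, 21 and 19 had 2 bins each, and chromosomes 2, 23 and 11 had 1. The other 9 chromosomes, namely 1, 4, 6, 9, 14, 15, 18, 20 and 22, had none, chromosome 4 within its first 25 Mb.

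The 5 fullest bins each had a background far above the genome-wide value of 0.994 fragments. The bin with the most peaks, 75, lay on chromosome 25 from 26.3 to 26.4 Mb. Its median summit had 25 overexpression fragments over 10.5 of background, a median ratio of 2.41, and 41 of its peaks had a q up to 0.05. The next, on chromosome 24 from 12.4 to 12.5 Mb, had 72 peaks, with a median of 76.5 overexpression fragments over 39.5 and a median ratio of 1.91, the lowest among the 43 bins. In both bins nearly every summit stood at a background 5 or more times the genome-wide one, 74 of 75 and 72 of 72.

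The bin on chromosome 16 from 18.2 to 18.3 Mb had 61 peaks, with a median of 47 overexpression fragments over 19.3 and a median ratio of 2.89. The bin on chromosome 12 from 14.3 to 14.4 Mb had 58 peaks, with a median of 63 fragments over 13.3 and a median ratio of 3.05. Its peaks covered 50.4% of the 100 kb, the highest coverage of the 43 bins. The bin on chromosome 5 from 53.3 to 53.4 Mb had 56 peaks, with a median of 36.5 fragments over 15.7 and a median ratio of 2.51. All 5 bins thus combined many peaks with high coverage in both libraries.

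**Figure D1:**
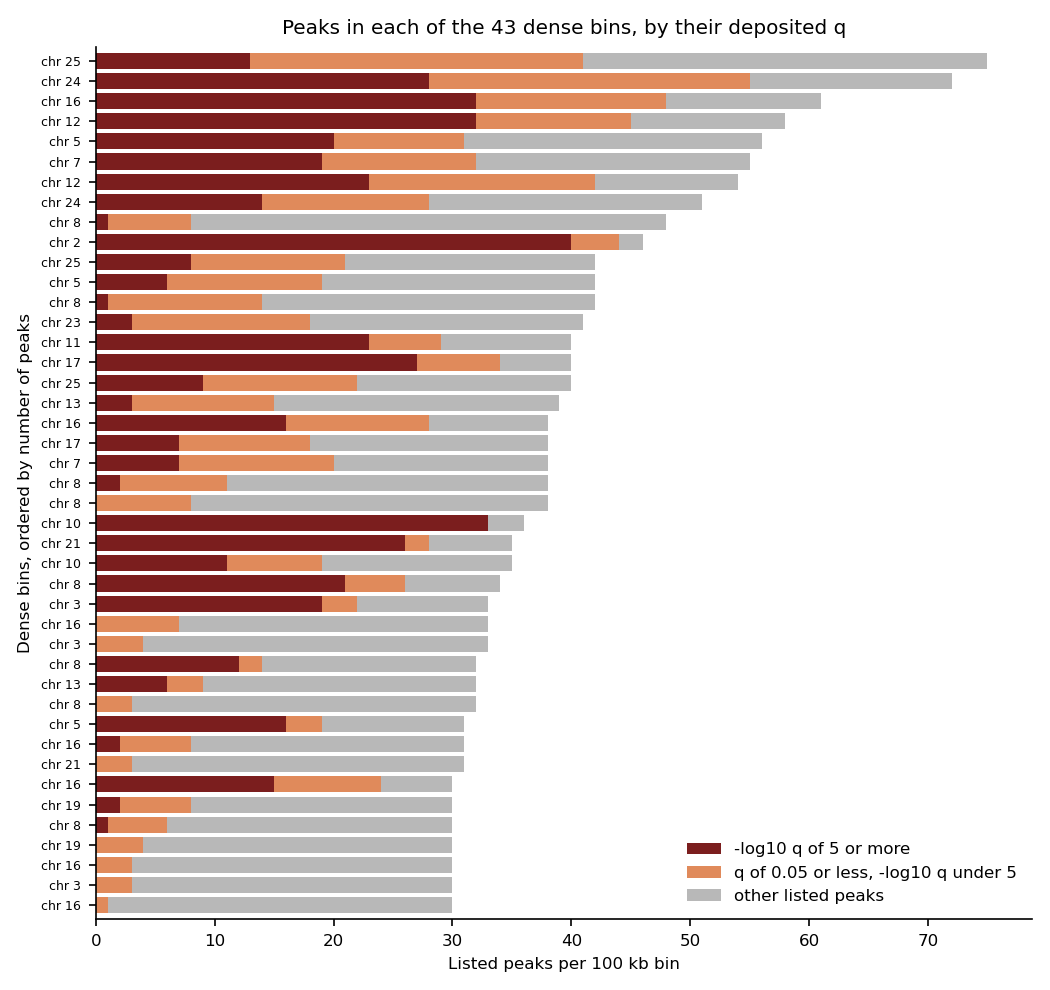
Number of listed peaks in each of the 43 dense bins, one bar per bin named by its chromosome and ordered by number of peaks, with colours for the deposited q. The bars run from 30 to 75 peaks, and the dark part (-log10 q of at least 5) runs from 0 in 9 bins to 40 in the bin on chromosome 2.

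The highest summit of each of these 5 bins was high in both libraries. On chromosome 25, the peak from 26386557 to 26387116 had 121 overexpression fragments and 107 control fragments over its summit. After the control was scaled by 0.552 per fragment the ratio was 2.05 (95% exact interval 1.57 to 2.68). On chromosome 24, the peak from 12416153 to 12416545 had 1269 overexpression and 855 control fragments, a ratio of 2.69 (2.46 to 2.93). These are counts in 1 library each, and a ratio above 1 is a condition of the list. The intervals do not allow for the choice of each peak by its overexpression fragments.

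On chromosome 16, the peak from 18235545 to 18236517 had 353 overexpression and 179 control fragments, a ratio of 3.57 (2.97 to 4.30). On chromosome 12, the peak from 14399392 to 14401114 had 234 and 172 fragments, a ratio of 2.46 (2.01 to 3.02). On chromosome 5, the peak from 53360941 to 53362087 had 129 and 112 fragments, a ratio of 2.09 (1.61 to 2.71). Before scaling, the control therefore had nearly as many fragments as the overexpression library at the summits on chromosomes 25 and 5. Counts before scaling do not compare the libraries, since 1 control fragment counted as 0.552 in the background. In the authors' deposited table the fold enrichments of these 5 peaks were 2.03, 2.68, 3.54, 2.45 and 2.07, in the same order.

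The lowest p, the highest fold enrichment and the widest peak among all members lay on chromosomes 11, 12 and 16, in that order. The highest ratio among members, 11.1, was that of another peak, in a bin of 30 peaks. The lowest p in the authors' deposited table belonged to the peak on chromosome 11 from 15112489 to 15115678, 3190 bp wide, where 1992 overexpression fragments stood against 1261 control fragments. Its ratio of 2.86 (95% exact interval 2.66 to 3.07) was close to the median of all members. The highest fold enrichment, 9.92 in the authors' deposited table, belonged to the peak on chromosome 12 from 14325934 to 14327726, with 124 overexpression and 21 control fragments and a ratio of 10.7 (6.70 to 17.9). The interval does not allow for the choice of this peak as the highest of all members. The widest peak, named after its value was seen, lay on chromosome 16 from 18325730 to 18330880 and spanned 5151 bp. Its summit had 30 overexpression and 6 control fragments, a ratio of 9.05 (3.71 to 26.6). The median summit had 21 overexpression fragments over all members and 8 in its bin, where the highest summit had 55.

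The control, not only the overexpression library, was high under the dense bins. A background 5 or more times the genome-wide one lay under 1069 of the 1730 peaks, or 61.8% (Wilson 95% interval 59.5% to 64.1%), against 2.07% in bins of 10 to 18 peaks. A background of at least 20 times lay under 543 peaks, or 31.4%, against 0.113%. In bins with 30, 29 and 28 peaks this share was 4.29%, 14.2% and 6.15%. The background was the genome-wide value itself at 4.22% of the members and at 33.1% of the comparison peaks. It was set by control fragments over the summit for 65.1% of the members, by those within 1 kb for 12.66% and within 10 kb for 18.03%. Where the summit set it, in 1126 peaks, the median was 27 control fragments before scaling, with quartiles of 10 and 71. The overexpression library had a median of 40 fragments there, with quartiles of 14 and 85.8. The corresponding medians in bins of 10 to 18 peaks were 3 control and 5 overexpression fragments.

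Within the same range of background the median ratio was higher in dense bins than in the comparison bins up to 20 times the genome-wide value. It was nearly equal from 20 to 50 times, and lower from 50 times on, where few comparison peaks lay. The quartiles of both groups overlapped at every level. At a given background a summit is listed only with enough overexpression fragments, and bins were chosen for many listed peaks. A higher ratio in dense bins thus follows in part from the rule. At 1 to 2 times the genome-wide background the median ratio was 3.72 in the 351 members and 3.62 in the comparison peaks. At 2 to 5 times it was 3.02 against 2.59, at 5 to 10 times 2.72 against 2.05, and at 10 to 20 times 2.56 against 1.81. From 20 to 50 times it was 2.30 in 310 members against 2.33 in 89 comparison peaks. From 50 to 100 times the medians were 2.43 in 159 members and 2.87 in 30 comparison peaks, and from 100 times on they were 2.92 in 74 members and 3.05 in 20. The smallest ratio that could be listed fell from 2.52 at 2 times to 1.81 at 5 times, 1.36 at 20 times and 1.17 at 100 times, so medians at different backgrounds are not comparable with each other.

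**Figure D2:**
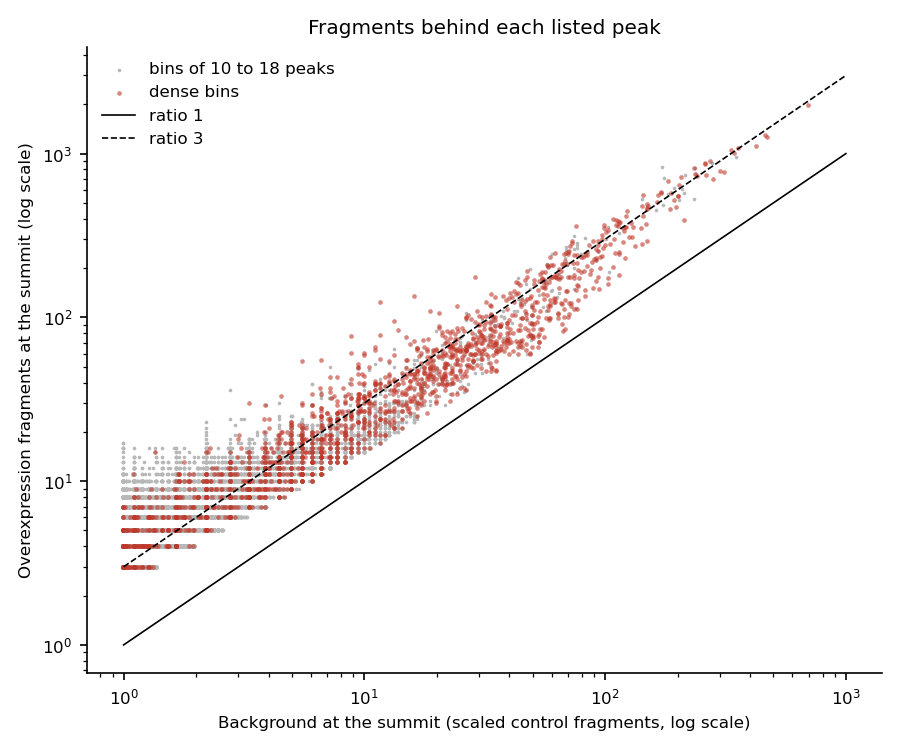
Overexpression fragments at the summit (vertical, log scale) against the background from the scaled control (horizontal, log scale), one point per listed peak, with lines at ratios of 1 and 3. Peaks of dense bins reach 1992 fragments and follow the line of ratio 3 or lie below it at high background, while most peaks of bins of 10 to 18 peaks lie in the lower left corner.

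Peaks in the dense bins were wider and closer together. The median member spanned 305 bp (quartiles 208 and 476 bp) and the median comparison peak 221 bp (184 and 303 bp). A width of 1000 bp or more was found for 90 members, or 5.20%, and for 0.118% of comparison peaks. In bins with 30, 29 and 28 peaks the share was 0.476%, 2.16% and 1.39%, so it did not rise evenly at the threshold of the rule. At like background the median widths were 302 bp in members and 239 bp in comparison peaks at 5 to 10 times the genome-wide value. At 50 to 100 times they were 446 bp and 441 bp. Neighbouring summits in a dense bin lay a median of 1353 bp apart, with quartiles of 846.5 and 2573 bp, against 4784 bp, which the rule itself sets in part. Listed peaks covered a median of 14.57% of a dense bin, from 7.52% to 50.4%, and 3.58% of a bin of 10 to 18 peaks.

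The 43 bins differed in background, and they were grouped for description by cuts at 2 and 10 fragments of median background. The bin medians ran on across both cuts, from 1.83 to 2.21 and from 8.84 to 10.5. Differences in fragment level between the groups follow in part from the cuts. In 18 bins, with 828 peaks, the median background was 10 fragments or more. Their median summits had 25 to 271.5 overexpression fragments over 10.5 to 99.1, the median ratios ran from 1.91 to 3.49, and each bin held 7 to 40 peaks with a -log10 q of at least 5. In 17 bins, with 649 peaks, the median background lay between 2 and 10 fragments, the median summits had 7 to 25 overexpression fragments and the median ratios ran from 2.27 to 3.17. These bins held 0 to 19 peaks with a -log10 q of at least 5.

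In the remaining 8 bins, with 253 peaks, the median background was under 2 fragments. Their median summits had 5 to 8 overexpression fragments over 1.13 to 1.83, the median ratios ran from 3.05 to 4.02, and 1 to 9 peaks per bin had a q up to 0.05. These made up 3.33% to 28.1% of the peaks of a bin, against 5.49% over the whole list. No peak reached a -log10 q of 5, a level met by 0.747% of the whole list, in 5 of these 8 bins. The sparsest in called peaks lay on chromosome 16 from 10.2 to 10.3 Mb, where 1 of 30 peaks had a q up to 0.05 and the highest summit had 7 overexpression fragments. A high number of listed peaks therefore occurred both with and without a high median background. Peaks at 5 or more times the genome-wide background still made up 0% to 25% of the peaks in each of these 8 bins. In bins of 10 to 18 peaks such peaks made up 2.07%. The median background of 36 of the 43 bins lay above 1.66, the 95th percentile of the bins of 10 to 18 peaks, and that of 4 lay at it.

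The highest backgrounds, down to a bin median of 40.9 fragments, were found in bins with fewer peaks than the fullest ones. On chromosome 10 from 16.8 to 16.9 Mb, 36 peaks had a median of 271.5 overexpression fragments over 99.1, and 33 of them had a -log10 q of at least 5. On chromosome 3 from 55.3 to 55.4 Mb, 33 peaks had a median of 169 fragments over 53.4, a median ratio of 3.33. On chromosome 2 from 19.4 to 19.5 Mb, 46 peaks had a median of 140 fragments over 49.4, and 40 of them had a -log10 q of at least 5.

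On chromosome 21 from 25.8 to 25.9 Mb, 35 peaks had a median of 105 fragments over 40.9. The median ratios of these 4 bins, named after their values were seen, lay between 2.81 and 3.33. Next in background came the bin of 72 peaks on chromosome 24 from 12.4 to 12.5 Mb, at 39.5, with a median ratio of 1.91. Below it, the bin on chromosome 8 from 34.7 to 34.8 Mb had 33.4 fragments of background and a ratio of 2.90. The bin on chromosome 16 from 15.6 to 15.7 Mb had 32.9 and 2.39. On chromosome 17 from 39.9 to 40 Mb, 40 peaks had a median of 63 fragments over 18.2, and the highest summit of that bin had 1116 fragments. On chromosome 11 from 15.1 to 15.2 Mb, 40 peaks had a median of 40.5 fragments over 13.9, a median ratio of 3.49.

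Adjoining dense bins formed 30 runs, of which 8 had 2 or more bins and together held 21 of the 43. The longest, on chromosome 8 from 34.5 to 35 Mb, had 5 bins and 194 peaks, 73 of them with a q up to 0.05. Those on chromosome 25 from 26.1 to 26.4 Mb and on chromosome 16 from 18.1 to 18.4 Mb had 3 bins each, with 157 and 122 peaks, of which 84 and 80 had a q up to 0.05. The 5 runs of 2 bins lay on chromosome 24 from 12.4 to 12.6 Mb with 123 peaks, chromosome 12 from 14.3 to 14.5 Mb with 112, chromosome 5 from 53.3 to 53.5 Mb with 98, chromosome 13 from 15.4 to 15.6 Mb with 71 and chromosome 16 from 36.3 to 36.5 Mb with 63. The peaks with a q up to 0.05 numbered 83, 87, 50, 24 and 10 in the same order. The run on chromosome 16 from 36.3 to 36.5 Mb held no peak with a -log10 q of at least 5, whereas the run on chromosome 12 held 55.

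The bins next to a run had fewer peaks, which the rule sets in part, since a flanking bin with 30 or more peaks would belong to the run. The median over the 30 runs was 37 peaks per bin, and it was 15 in the 59 flanking bins, where counts ranged from 6 to 28. Of these 59 bins, 1 of which lay between neighbouring runs on chromosome 7, 41 had 18 or fewer peaks. The median background over the 30 runs was 8.42 fragments, and over the flanking bins it was 1.23, with 49 of 59 under 2 fragments. Exceptions included the run on chromosome 8 from 34.5 to 35 Mb, whose flanking bins had 24 and 27 peaks at median backgrounds of 23.2 and 32.3 fragments.

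**Figure D3:**
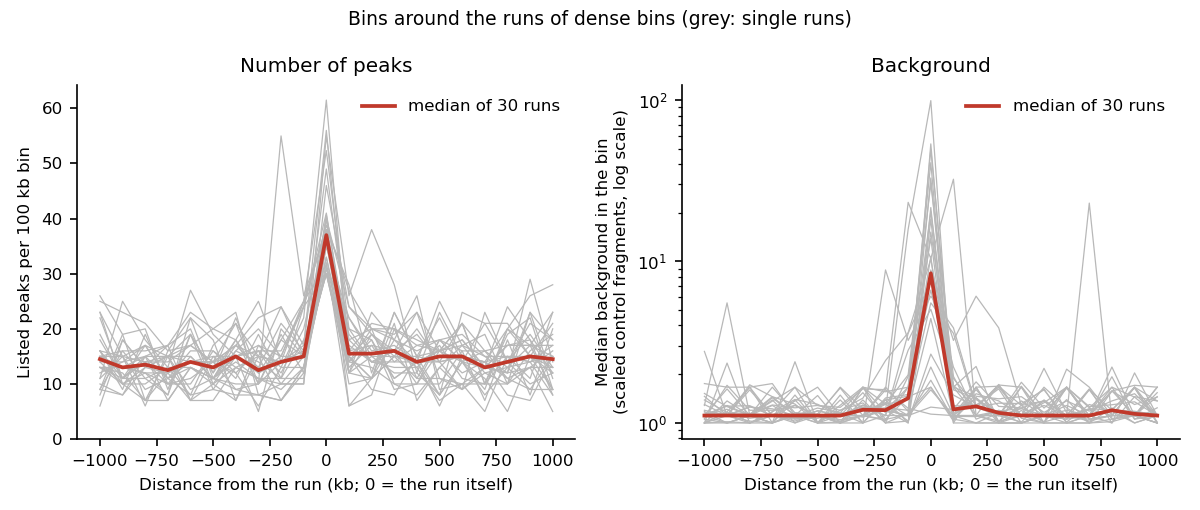
Listed peaks per 100 kb bin (left) and median background per bin in scaled control fragments (right, log scale) against the distance from the run of dense bins in kb, with grey lines for the 30 single runs and a red line for their median. The median falls from 37 peaks and a background of 8.42 in the run to 15 peaks and 1.42 in the bin before it, and to 15.5 peaks and 1.21 in the bin after it.

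Most high-background peaks of the dense bins could be linked into blocks. Peaks with a background 5 or more times the genome-wide one were linked when their summits lay within 10 kb of each other, and blocks of 10 or more were kept, a rule chosen after the values were seen. Of 59 such blocks in the chromosome interiors, 28 lay in or reached into a dense bin, and they contained 978 of the 1069 high-background members, or 91.5%. That share follows in large part from the linking rule, since neighbouring summits in a dense bin lay a median of 1353 bp apart. The 28 blocks were 18.5 to 162.3 kb long, with a median of 50.6 kb, and held 11 to 116 high-background peaks. The gap between neighbouring summits had a median of 929 to 6360 bp in single blocks, with a median over blocks of 1193.5 bp. The 31 blocks that touched no dense bin had a median length of 24.01 kb and held 10 to 37 such peaks, and their smaller size follows in large part from the split by number of peaks per bin.

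Among listed summits, the blocks differed far more in level than in ratio. Median backgrounds of the 28 blocks spanned 5.61 to 118.2 fragments, while median ratios spanned 1.94 to 3.61. Both spans depend in part on the rules. When linked over 5 kb, blocks had median ratios from 1.90 to 4.94 at median backgrounds of 6.63 to 118.2. When linked over 20 kb, the ratios ran from 1.65 to 3.61 at 5.52 to 118.2. A block needed a background 5 or more times the genome-wide one, with no upper limit. Ratios under the smallest that could be listed, 1.81 at 5 times and 1.51 at 10 times, were missing. Among the 28 blocks, the median ratio lay under 2 in 1 and over 3 in 5. The block with the highest median background, on chromosome 3 from 55347102 to 55369224, had a median of 349 overexpression fragments over 118.2 and a median ratio of 3.02. The longest, on chromosome 24 from 12403314 to 12565582, had 116 peaks, all at high background, with a median of 68 overexpression fragments over 34.5 and a median ratio of 2.03, quartiles 1.70 and 2.32.

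The block on chromosome 10 from 16783995 to 16842718 had 41 peaks with a median of 278 fragments over 100.0 and a median ratio of 2.76. The block on chromosome 25 from 26265868 to 26387848 had 94 high-background peaks among 100, with a median of 25 fragments over 9.67 and a median ratio of 2.45. The highest median ratio, 3.61 with quartiles of 2.85 and 4.61, was that of the block on chromosome 11 from 15107262 to 15151954, where the median summit had 85 fragments over 20.2. The ranges of the ratio overlapped, since the range of each of the 28 blocks included the values from 2.19 to 2.90.

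**Figure D4:**
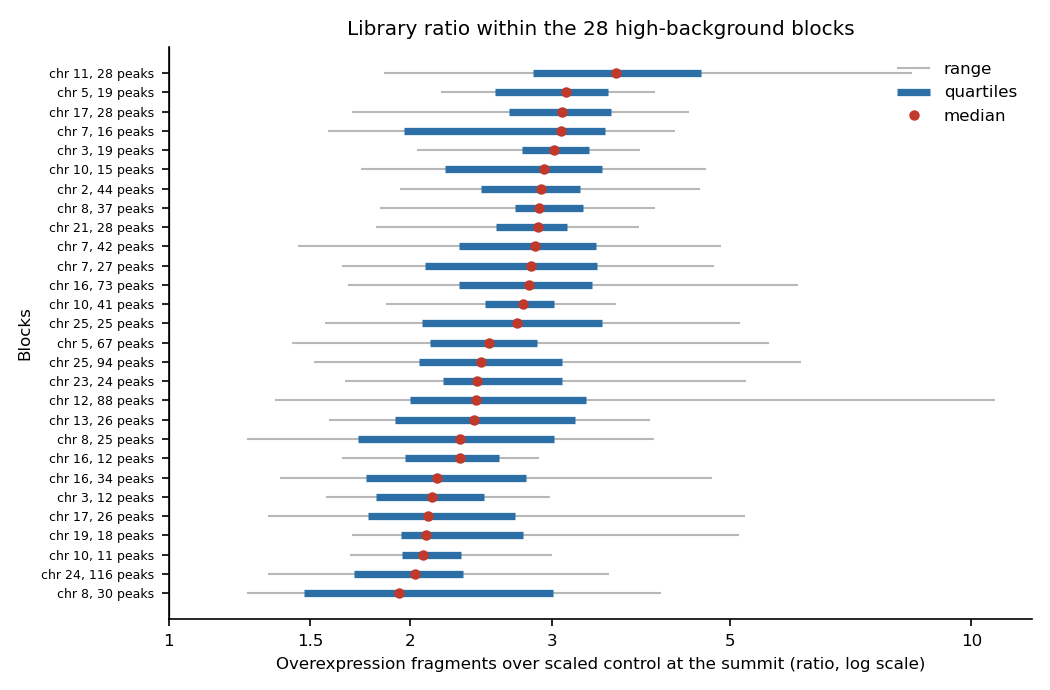
Ratio of overexpression fragments to the scaled control at the summits of the 28 high-background blocks in dense bins (log scale), each named by its chromosome and its number of high-background peaks, with the median as a point, the quartiles as a thick line and the range as a thin line. Medians run from 1.94 in a block on chromosome 8 to 3.61 in the block on chromosome 11, and the block on chromosome 12 reaches 10.7.

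There were 7 runs with no such block, all of 1 bin. They lay on chromosome 3 from 42.4 Mb, chromosome 8 from 8.7, 31.6 and 43.6 Mb, chromosome 16 from 10.2 Mb, chromosome 19 from 18.2 Mb and chromosome 21 from 20.8 Mb. Their bins had 30 to 38 peaks, 1 to 8 of them with a q up to 0.05. These made up 3.33% to 21.1% of the peaks of a bin, against 5.49% over the whole list. The fullest, on chromosome 8 from 31.6 to 31.7 Mb, had a median of 7.5 overexpression fragments over 1.83 and no summit above 11 fragments. Bins reached by a block could be as low at the median, as on chromosome 13 from 15.4 to 15.5 Mb, where the median summit had 6.5 overexpression fragments over 1.66.

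On chromosome 12 the block changed its ratio part of the way along while the overexpression signal stayed high. The edges were set after the values were seen, at the 10 kb windows where the median summit first and last had 20 or more overexpression fragments and where the median ratio first fell under 3. In the windows of 10 kb before 14.32 Mb the median summits of the run and its flank had 3 to 8 overexpression fragments. From 14.32 to 14.37 Mb, 21 high-background peaks had a median of 55 overexpression fragments, with quartiles of 45 and 76, over a background of 9.94, with quartiles of 9.39 and 12.70. From 14.37 to 14.45 Mb, 67 such peaks had a median of 70 overexpression fragments, with quartiles of 63.5 and 82, over a background of 30.9, with quartiles of 26.8 and 39.8. The overexpression quartiles of both stretches overlapped and the background quartiles did not. Because the boundary was placed where the ratio fell, differences in background, ratio and fold between the stretches follow from it in part.

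The unscaled control had a median of 20 fragments in the first stretch and 62 in the second. The ratio had a median of 5.32 in the first, with quartiles of 4.46 and 5.99 and a range of 2.72 to 10.7, and 2.16 in the second, with quartiles of 1.92 and 2.49 and a range of 1.36 to 3.92. Of the 21 high-background peaks in the first stretch, 10 had a fold enrichment of at least 5 in the authors' deposited table, and of the 67 such peaks in the second, 0 had. The first stretch also had wider peaks, with a median of 1563 bp against 506 bp, and the peaks counted here covered 63.4% of it against 45.0% of the second. Past 14.45 Mb the median of the next 10 kb was 5 overexpression fragments over 1.105. The first and last 10 kb windows inside the edges had medians of 76 and 65 overexpression fragments. A fall under 20 fragments outside both edges follows from how the edges were placed.

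Members with a fold enrichment of 5 or more were spread unevenly over the bins. They were 1.56% of the members, against 0.303% of the whole list. Of the 27 such members, 12 lay on chromosome 12, 4 on chromosome 11, 3 each on chromosomes 16 and 25, and 1 each on chromosomes 3, 7, 8, 13 and 19. All 12 on chromosome 12 lay between 14.3 and 14.4 Mb. Such peaks were absent from 32 of the 43 bins, and 8 bins held 1 each. As 27 peaks cannot reach all 43 bins, nothing is read from their absence.

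On chromosome 8 the run from 34.5 to 35 Mb held peaks of like background and unlike ratio. In its highest block, from 34.7661 to 34.8135 Mb, 36 peaks with a background 20 or more times the genome-wide one had a median of 167 overexpression fragments over 57.2, a median ratio of 2.91, with quartiles of 2.70 and 3.29. In the rest of the run, 26 peaks with such a background had a median of 67.5 overexpression fragments over 46.9, a median ratio of 1.47, with quartiles of 1.34 and 1.55 and a range of 1.23 to 2.26. The quartiles of the ratio did not overlap, although the backgrounds did, at 21.0 to 237 fragments in the block and 19.9 to 67.9 outside it. The smallest ratio that could be listed was 1.36 at a background of 19.9 fragments and 1.25 at 49.7. The lower quartile and the median outside the block, 1.34 and 1.47, thus lay near that limit, and lower ratios there are missing from the list. The peaks of the rest of the run were narrower, with a median of 269.5 bp against 515.5 bp. The run also held members at lower background. The bin from 34.6 to 34.7 Mb held 48 peaks at a median background of 4.97 fragments, of which 8 had a q up to 0.05. In that bin, 28 peaks had a background 5 or more times the genome-wide one. The boundaries of this comparison were also set after the values were seen.

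**Figure D5:**
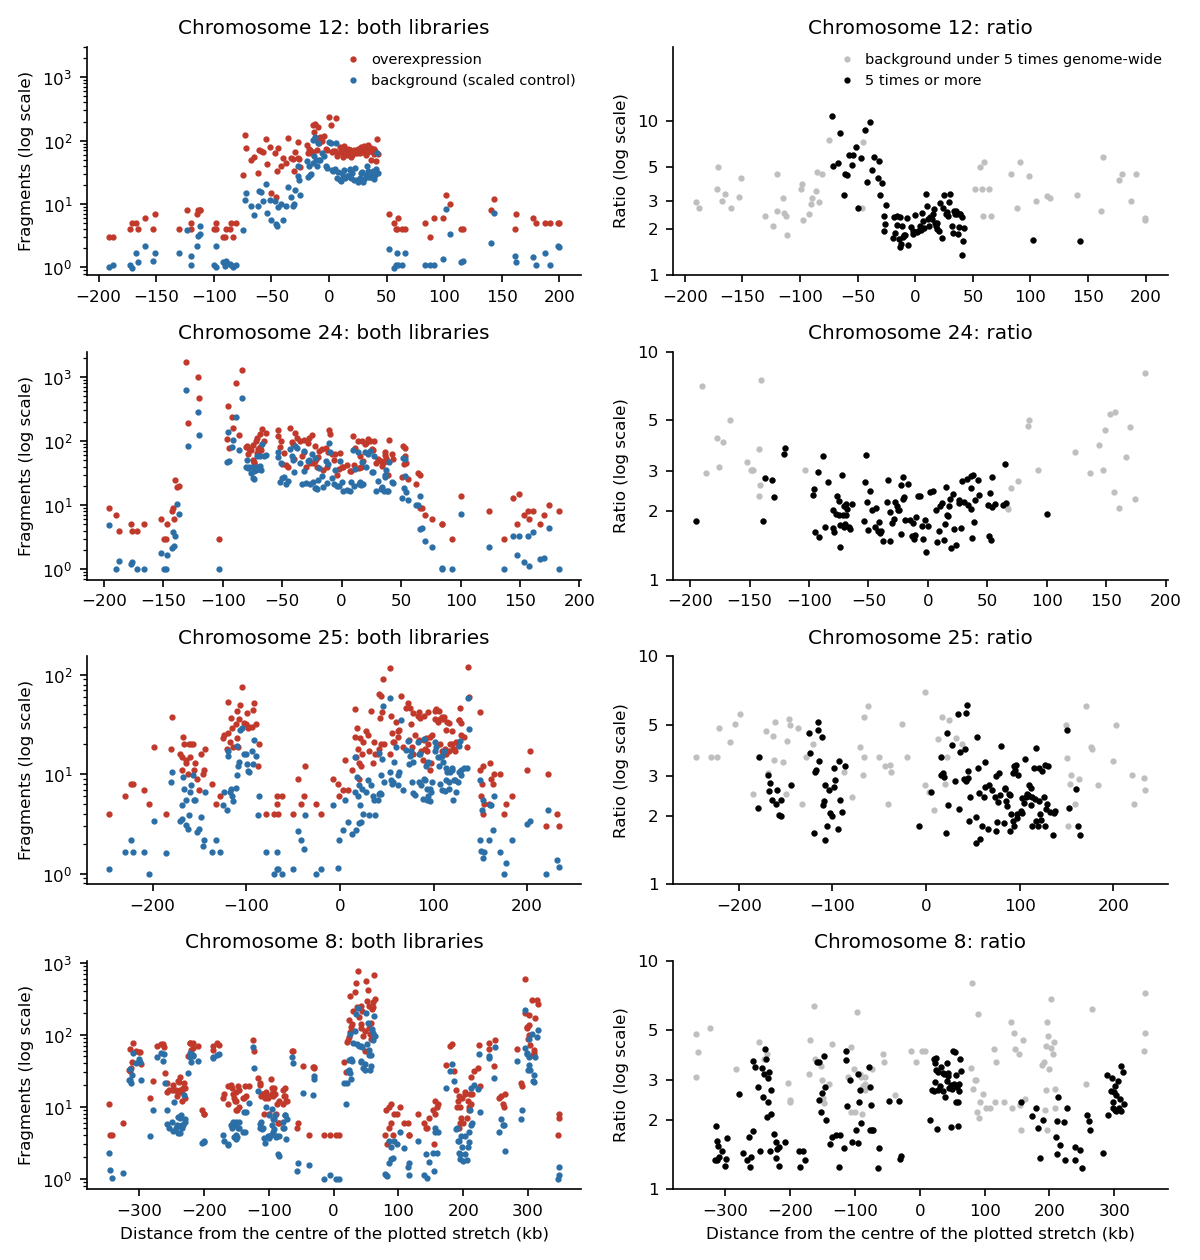
Fragments at each listed summit in both libraries (left, log scale) and their ratio (right, log scale) along 4 runs of dense bins with 100 kb on each side, against the distance in kb from the centre of the plotted stretch; black points in the right panels have a background 5 or more times the genome-wide one. On chromosome 12 the median ratio is 5.32 before and 2.16 after a boundary placed by the ratio. On chromosome 24 the median ratio of the block is 2.03, with quartiles of 1.70 and 2.32. On chromosome 8, at 20 or more times the genome-wide background, median ratios are 2.91 in 1 block and 1.47 elsewhere in the run. The value of 1.47 lies near the smallest ratio that could be listed.

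The runs on chromosomes 24, 25 and 13 showed further arrangements. On chromosome 24 the medians of the 10 kb windows from 12.42 to 12.56 Mb stayed between 40 and 99 overexpression fragments, with ratios between 1.70 and 2.55. The windows from 12.40 to 12.42 Mb, at the start of the run, had higher medians of 159 and 471 fragments, with ratios of 2.35. In the flanking bin before the run, the window from 12.36 to 12.37 Mb held a summit of 1710 overexpression fragments over 622. On chromosome 25 the run held separate blocks, from 26125229 to 26163532 with 25 high-background peaks and from 26265868 to 26387848 with 94. Between them, from 26.17 to 26.26 Mb, the median summits of the 10 kb windows had 4 to 9 overexpression fragments. On chromosome 13 the highest window, from 15.49 to 15.50 Mb, had 6 peaks with a median of 226 overexpression fragments over 111.0, while the windows from 15.46 to 15.49 Mb had medians of 5 to 7 fragments.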

How the data were processed

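CUT&Tag with an antibody to the HA tag was run on 2 samples, 1 control and 1 overexpression, grouped by their titles, and 1 list of peaks of the overexpression sample was analysed. For each peak the authors deposited a score, the fold enrichment of its summit, the -log10 p-value and the -log10 q-value, in 10 columns without a header. The submitters' processing notes name the build GRCz11 and, without a role or order, FastQC 0.11.4, Trim Galore 0.6.0, Bowtie2 2.4.5, SAMtools 1.15.1, Picard 2.1.0, MACS2 2.2.7.1 and deepTools 3.5.0. Their settings, and whether duplicates were removed or libraries pooled, are not given in the sources used here. Kept duplicates would raise fragment counts.

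The fragments behind each peak were solved from the deposited fold, read as (fragments + 1)/(background + 1), and from the deposited p, read as a Poisson probability of more than that number of fragments. A whole number of overexpression fragments matched for 192839 of 192841 peaks within a relative difference of 5e-05. The steps of the background gave 0.552 per control fragment over a summit, 0.0851 per fragment in 1 kb and 0.00851 in 10 kb, a fragment length of 154 bp and a genome-wide value of 0.994. That the control is the sample labelled so follows from the labels alone. The total number of fragments per library is not recorded. The solver was tested on simulated data.

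Summits were assigned to bins with Python 3.11.15, pandas 2.3.3, numpy 2.4.6 and SciPy 1.17.1. Medians, quartiles and counts were taken over peaks, shares have Wilson 95% intervals, and ratios at single peaks have exact Clopper-Pearson 95% intervals, which condition on the background coming from the control fragments over that summit. The intervals at single peaks do not allow for the choice of those peaks as extremes. As each group has 1 library, no test over samples could be made. Bins were named in full if they were the 5 with the most peaks, with all runs of adjoining dense bins; peaks were named for the highest fold, the lowest p and the most overexpression fragments in each of the 5 bins. Further bins and blocks were named after their values were seen. The regions and the lists were chosen with earlier results of these data known. Overlap with genes and the TCGTG core were planned and not analysed here, since they need a genome and annotation of the list's build. Alternatives were other bin sizes, starts and thresholds, other thresholds on q, and blocks linked over other distances.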

Additional observations from a re-analysis of the deposited data

How the results depend on the processing

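Of 36 alternative values, 12 stayed within the intervals or the 1.5 times used as limits, and 24 moved. Most of these intervals treat the peaks as independent, although peaks share bins, so a small change could count as moved. With 25 or more peaks per bin, 183 bins held 5403 peaks, with a median fold of 2.39, ratio of 3.07, background of 1.66, 23.0% at a q up to 0.05, and 7.46% of a bin covered; the lower minimum admits bins with fewer peaks by construction. With 35 or more, 26 bins held 1198 peaks, with a ratio of 2.72, a background of 12.2, 59.3% and 17.4%. In bins of 50 kb with 15 or more peaks, 264 bins held 4732 peaks, with a fold of 2.399, ratio of 3.02, background of 1.95, 26.4% and 9.09%. Bins shifted by 50 kb held 1781 peaks, with a fold of 2.41 and a ratio of 2.73, which moved. The fold was counted as moved against a lower limit of 2.42. The background of 7.73, the 48.7% at a q up to 0.05 and the 14.6% of a bin covered stayed. Where the values were taken from the peaks that passed a q of 0.05, the fold was 2.86, the ratio 2.97 and the background 21.7, and 10 bins held 30 or more such peaks, 405 in all. At a q of 0.01 the share fell to 43.7%. The background without chromosome 8 was 9.39. The cause of the other moves was not tested. The number of blocks, 28, was 31, 27 and 21 when linked over 5 kb, over 20 kb and at 10 times the background, chosen after seeing the data, as were the values without chromosomes 8 and 16. The 3 alternatives on gene overlap and the TCGTG core were not run. No paired analysis was possible because each group has 1 library. With 3 fragments the least that the list admits at the genome-wide background, smaller differences were not detectable there.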
